A study of Saccharomyces cerevisiae with 15 samples.

Results

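The 38 nuclear genes of the mitochondrial respiratory chain and ATP synthase were examined in budding yeast cells losing the protein Zpr1, among the 7127 gene rows of the deposited count table. They were picked out by gene name, as a set proposed with earlier results of these data known: 3 NADH dehydrogenase genes (NDI1, NDE1, NDE2), 4 genes of complex II, 9 of complex III, 2 of cytochrome c, 9 of complex IV and 11 of ATP synthase. The members the results turn on most are CYC7 (YEL039C), COX5B (YIL111W), SDH1 (YKL148C), NDI1 (YML120C), NDE1 (YMR145C) and QCR8 (YJL166W). All 38 were found and all passed the filter on low counts, which kept 6069 genes. Polyadenylated RNA had been sequenced from 15 libraries of strain W303 with the genotype ZPR1-AID, in which ZPR1 carries an auxin-inducible degron (AID). The 5 groups of 3 libraries were untreated cells (0 h), cells after 0.5 h, 1.5 h and 3 h of 5-Ph-IAA, an auxin derivative that triggers loss of the tagged protein, and cells after 3 h of the solvent DMSO. Every group carried the tag. With no untagged strain given 5-Ph-IAA, an effect of the compound itself and of losing Zpr1 cannot be told apart. With DMSO only at 3 h, the passing of time and 5-Ph-IAA cannot be told apart at 0.5 h and 1.5 h. The labels do not say whether the 3 libraries of a group were separate cultures, so the p-values may measure technical spread only.

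Electrons enter the yeast chain from NADH through single-subunit dehydrogenases (budding yeast has no proton-pumping complex I) and from succinate through complex II. They pass by ubiquinone to complex III, by cytochrome c to complex IV and there to oxygen, and ATP synthase uses the proton gradient that complexes III and IV build. Glucose represses many of these genes in this yeast, and the Hap2/3/4/5 activator, which binds CCAAT elements and is limited by its subunit Hap4, raises them when glucose is used up. Some proteins of the chain come as pairs: cytochrome c from CYC1 (aerobic) and CYC7 (hypoxic), subunit 5 of complex IV from COX5A (aerobic) and COX5B (hypoxic), and the external NADH dehydrogenase from NDE1 and NDE2. Rox1 is a haem-dependent repressor of hypoxic genes, and Hap1 is a haem-responsive activator.

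The upstream sequences of the cytochrome c and subunit 5 pairs are shown because CYC7 and COX5B were the paired hypoxic genes that rose at 3 h of 5-Ph-IAA. Each line holds bases -300 to -101 before the start codon, 5′ to 3′ on the gene's strand, from RefSeq build R64 (strain S288C, while the cells were W303). Capitals mark AGGGG (the stress response element), CCAAT and ATTGTT (the core of the Rox1 element), on either strand. The windows are chrV:80078-80277 on the minus strand for CYC7, chrX:526035-526234 on the plus strand for CYC1, chrIX:154922-155121 on the plus strand for COX5B and chrXIV:531425-531624 on the plus strand for COX5A.
CYC7: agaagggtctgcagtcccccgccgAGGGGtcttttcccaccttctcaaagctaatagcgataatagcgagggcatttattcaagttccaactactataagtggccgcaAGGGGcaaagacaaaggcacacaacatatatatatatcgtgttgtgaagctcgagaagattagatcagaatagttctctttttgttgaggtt
CYC1: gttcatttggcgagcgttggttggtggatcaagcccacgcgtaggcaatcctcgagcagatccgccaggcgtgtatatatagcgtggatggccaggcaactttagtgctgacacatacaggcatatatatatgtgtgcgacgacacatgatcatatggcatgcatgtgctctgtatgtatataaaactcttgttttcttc
COX5B: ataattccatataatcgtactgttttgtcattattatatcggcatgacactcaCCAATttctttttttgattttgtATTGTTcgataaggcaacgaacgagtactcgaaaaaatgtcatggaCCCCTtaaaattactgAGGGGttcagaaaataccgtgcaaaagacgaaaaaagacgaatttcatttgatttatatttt
COX5A: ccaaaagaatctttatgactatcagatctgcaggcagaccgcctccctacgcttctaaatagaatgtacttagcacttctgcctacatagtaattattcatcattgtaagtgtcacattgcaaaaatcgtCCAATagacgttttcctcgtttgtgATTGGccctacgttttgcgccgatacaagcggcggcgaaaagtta
Over the full 300 bases before the start codon, CYC7 held AGGGG at -276 and -192, and CYC1 held none of these 3 motifs. COX5B held AGGGG at -178 (on the other strand) and -162, CCAAT at -247 and -72 and ATTGTT at -224 and -81, while COX5A held CCAAT at -170 and -145, ATTGTT at -95 and no AGGGG. Among all 38 genes, CCAAT was present in 32 (84.2%) of these windows, against 41.8% of 5988 windows over the genome. AGGGG was present in 17 (44.7%), against 22.2% of all windows, and ATTGTT in 16 (42.1%), against 34.1%. The Gcn4 element TGACTC was present in 0 of the 38, against 7.77% of all windows, and TATAAA in 15 (39.5%), against 48.2%. The heat shock elements GAANNTTC and TTCNNGAA were present in 2 (5.26%) and 5 (13.2%), against 11.5% and 13.1% of all windows. A match describes the letters only and is not a test of binding.

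Library totals ran from 2530145 counts (library 2 of 3 h of 5-Ph-IAA) to 21282576 counts, and the 38 genes together took 0.813% to 1.40% of a library. Levels are CPM, the counts of a library divided by its TMM-scaled total, and fold changes are on the log2 scale with a standard error (SE). Adjusted p-values come from edgeR's quasi-likelihood test with Benjamini-Hochberg adjustment over the 6069 genes, and a gene was called at an adjusted p under 0.05. ZPR1 RNA stood at 104, 91.0 and 177 CPM in the 3 libraries of 3 h of 5-Ph-IAA and at 80.1, 52.7 and 151 CPM in those of DMSO. The degron acts on the protein, so these values do not check the depletion. No gene of the 38 overlaps another annotated gene or has a near-identical copy. The closest pair described here, CYC1 and CYC7, is identical at 79.2% of aligned coding bases, over 94.8% of CYC1 and 91.5% of CYC7. COX5A and COX5B are identical at 67.4% of aligned coding bases, over 90.3% of COX5A and 91.4% of COX5B.

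Per coding kilobase, the RNAs of the chain spanned a wide range of levels. COX7 was highest, at a mean of 2524 CPM per kilobase over all libraries, followed by ATP17 (1841), ATP15 (1603), QCR8 (1527) and CYC1 (1411). The lowest were NDE2 (1.86), NDI1 (49.0), SDH1 (56.0), SDH4 (84.3), CYC7 (93.5) and SDH2 (99.1). The median over the 4 genes of complex II stood at 106 to 113 CPM per kilobase at 3 h of 5-Ph-IAA, 105 to 139 with DMSO and 60.2 to 75.7 in untreated cells. In every library this lay below the medians of complex III (317 to 685), ATP synthase (397 to 501) and complex IV (669 to 856).

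At 3 h, cells with 5-Ph-IAA differed from cells with DMSO in 4 of the 38 genes, all higher: CYC7, COX5B, NDE1 and QCR8. No gene of the 38 was called lower. Of all tested genes, 7.94% were called in either direction, 5.07% higher and 2.87% lower, against 10.5% of the 38, all higher. The median log2 fold change was 0.14 over the 38 genes and -0.02 over all tested genes. The 3 libraries of 5-Ph-IAA all lay above the 3 of DMSO for 10 of the 38 genes (26.3%), against 9.75% of all tested genes, and all lay below for 0 of 38, against 10.2%. Those 10 were CYC7, NDE1, QCR7, QCR8, QCR9, COX5A, COX5B, COX7, COX9 and COX13. Same-numbered libraries of these groups deviated together (correlations of 0.196, 0.302 and 0.586). Libraries 1 and 2 also did so across numbers, at 0.170 (5-Ph-IAA 1 with DMSO 2) and 0.123 (5-Ph-IAA 2 with DMSO 1). Pairs of library 3 with another number ran from -0.422 to -0.261. Deviations from a group mean cancel over the 3 libraries of the group, so these correlations depend on one another. With the library number as a block the count was 7, with QCR7, QCR10 and COX7 added (adjusted p 0.0236, 0.0432 and 0.0402). It was 8 when the block was fitted on these 6 libraries alone, with COX12 added as well. The count fell to 1 (CYC7) without library 2 of 5-Ph-IAA or library 1 of DMSO, was 2 without library 1 of 5-Ph-IAA or library 3 of DMSO, and 7 without library 3 of 5-Ph-IAA.

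**Figure D1:**
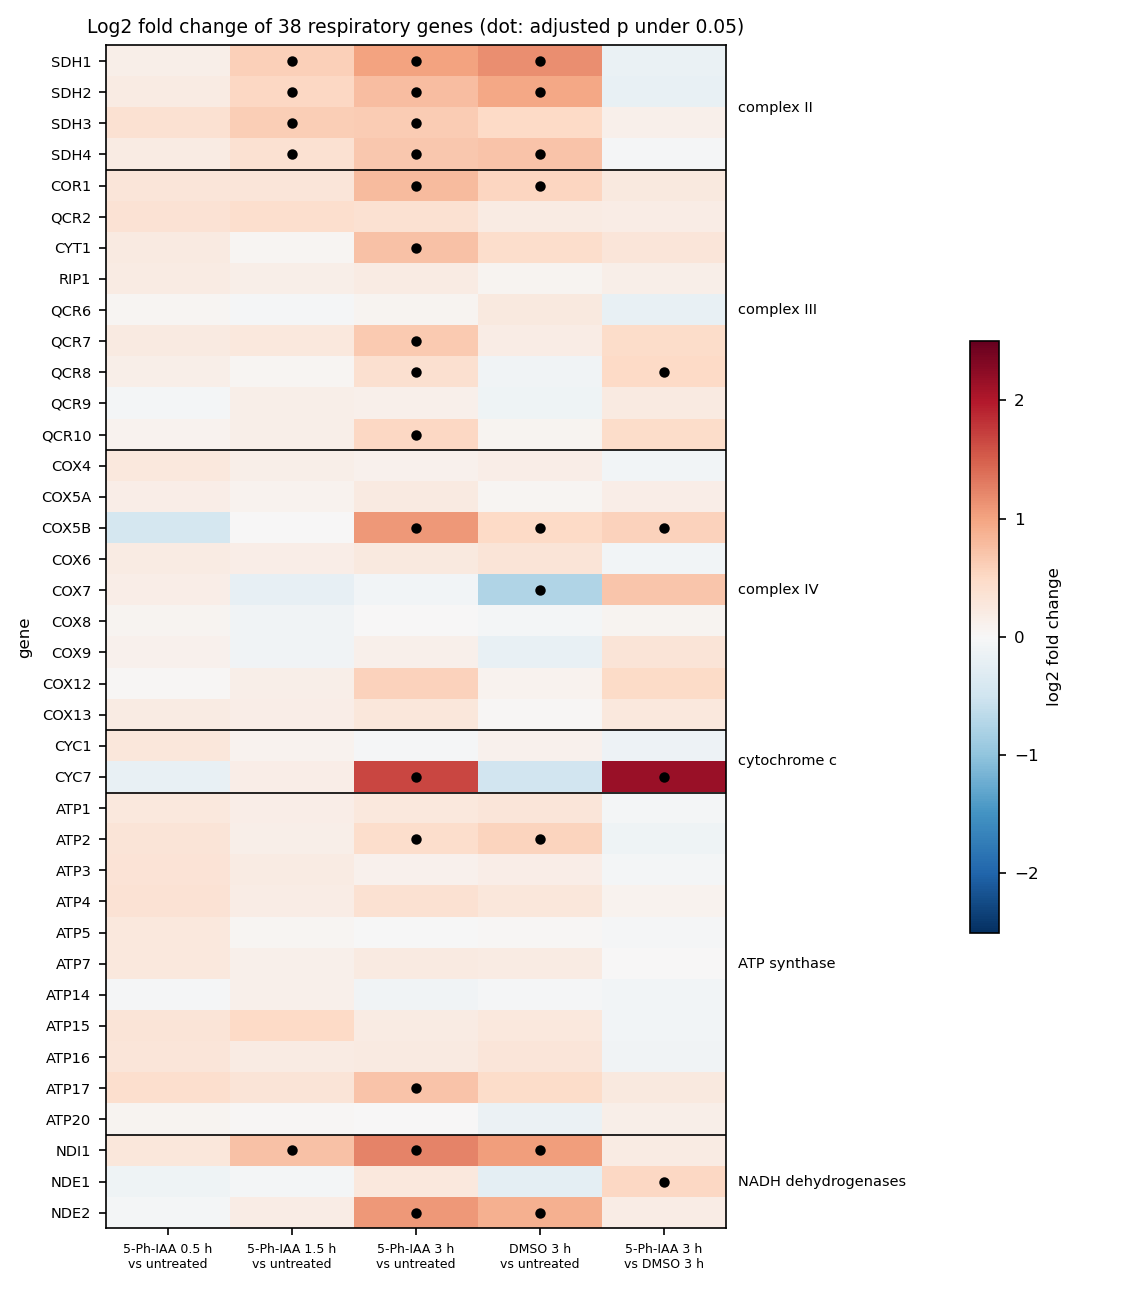
Log2 fold changes of the 38 genes (rows, by complex) in 5 comparisons (columns), as colour, with a dot where the adjusted p was under 0.05. In the column for 5-Ph-IAA over DMSO the dots are QCR8, COX5B, CYC7 and NDE1, while all 4 genes of complex II have a dot at 1.5 h and 3 h of 5-Ph-IAA over untreated cells.

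Of the 3 NADH dehydrogenases, NDE1 was called between 5-Ph-IAA and DMSO, and NDI1 and NDE2 were called over untreated cells in both. NDI1, which takes electrons from NADH in the matrix, stood at 43.9, 55.6 and 37.0 CPM in the 3 untreated libraries and at 45.3, 60.9 and 59.2 CPM after 0.5 h. It stood at 81.7, 80.0 and 66.3 CPM after 1.5 h and at 96.2, 108 and 120 CPM after 3 h of 5-Ph-IAA, against 74.8, 83.5 and 122 CPM with DMSO. Set against untreated cells, NDI1 rose by 0.74 on the log2 scale at 1.5 h (SE 0.19, adjusted p 0.0130), by 1.25 at 3 h of 5-Ph-IAA (SE 0.19, adjusted p 7.6e-05) and by 1.04 at 3 h of DMSO (SE 0.19, adjusted p 0.000444). The groups of 3 h overlapped, and their difference was 0.21 (SE 0.18, adjusted p 0.557). The call at 1.5 h was lost without library 3 of untreated cells or library 2 of 1.5 h, where the adjusted p reached 0.0669.

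NDE1, the main external enzyme, which oxidises cytosolic NADH, was higher with 5-Ph-IAA than with DMSO. Its levels were 562, 631 and 721 CPM in untreated cells, 521, 561 and 696 CPM at 0.5 h and 577, 601 and 670 CPM at 1.5 h. They were 695, 724 and 893 CPM at 3 h of 5-Ph-IAA, against 554, 471 and 588 CPM with DMSO. The groups of 3 h did not overlap: NDE1 was 1.43-fold higher with 5-Ph-IAA than with DMSO (log2 0.52, SE 0.15, adjusted p 0.0368). It was not called over untreated cells at either (0.27 at 3 h of 5-Ph-IAA, -0.25 at 3 h of DMSO). The call against DMSO was lost in 7 of 15 alternatives, among them those without library 2 or 3 of 5-Ph-IAA or library 1 or 2 of DMSO, with an adjusted p of up to 0.180. NDE2, its isoform, was near the lower limit of measurement, at 2.85, 1.42 and 2.09 CPM in untreated cells, 1.78, 2.20 and 2.14 CPM at 0.5 h and 2.30, 3.18 and 1.78 CPM at 1.5 h. It reached 3.83, 6.97 and 3.60 CPM at 3 h of 5-Ph-IAA, against 3.35, 4.55 and 3.78 CPM with DMSO, with 18 to 113 counts a library in these groups. NDE2 rose over untreated cells in both (log2 1.07, SE 0.35, adjusted p 0.0218, and 0.89, SE 0.33, adjusted p 0.0437). Without library 2 of untreated cells both calls were lost. So was the first without library 2 of 5-Ph-IAA, and the second without library 3 of untreated cells or library 2 or 3 of DMSO, with adjusted p of up to 0.0949 and 0.161.

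Complex II, which passes electrons from succinate to ubiquinone, rose over untreated cells in all 4 of its genes at 1.5 h and 3 h of 5-Ph-IAA and in 3 with DMSO, against 7.86%, 19.6% and 17.6% of all tested genes called higher. SDH1, the flavoprotein, stood at 68.9, 76.8 and 59.7 CPM in untreated cells, 77.8, 72.0 and 76.8 CPM at 0.5 h and 102, 107 and 102 CPM at 1.5 h. It reached 137, 148 and 126 CPM at 3 h of 5-Ph-IAA, against 151, 146 and 165 CPM with DMSO. From 1.5 h on every library lay above every untreated library, while the groups of 3 h overlapped. SDH1 was 1.51-fold higher at 1.5 h than in untreated cells (log2 0.60, SE 0.11, adjusted p 0.00132), 2.0-fold higher at 3 h of 5-Ph-IAA (1.0, SE 0.11, adjusted p 2.79e-06) and 2.25-fold higher at 3 h of DMSO (1.17, SE 0.11, adjusted p 1.42e-06). These 3 calls held in every alternative run. SDH2, the iron-sulphur subunit, and SDH3 and SDH4, the membrane anchors, rose by log2 0.52, 0.61 and 0.38 at 1.5 h and by 0.77, 0.63 and 0.68 at 3 h of 5-Ph-IAA. With DMSO SDH2 rose by 0.97 and SDH4 by 0.71, and SDH3 missed the threshold at 0.49 (adjusted p 0.0553). At 3 h of 5-Ph-IAA over DMSO the 4 genes ranged from -0.19 to 0.13, and 0 of 4 were called by edgeR (0 at an unadjusted p under 0.05, and 0 by DESeq2). In that comparison edgeR called 7.94% of all tested genes, and 1332 of 6069 reached an unadjusted p under 0.05. The calls of SDH2, SDH3 and SDH4 at 1.5 h were each lost without library 1 or 3 of untreated cells or library 1 or 2 of 1.5 h, with adjusted p of up to 0.216, 0.156 and 0.131. That of SDH3 at 3 h was lost without library 1 or 3 of untreated cells or library 3 of 5-Ph-IAA (adjusted p up to 0.0828).

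**Figure D2:**
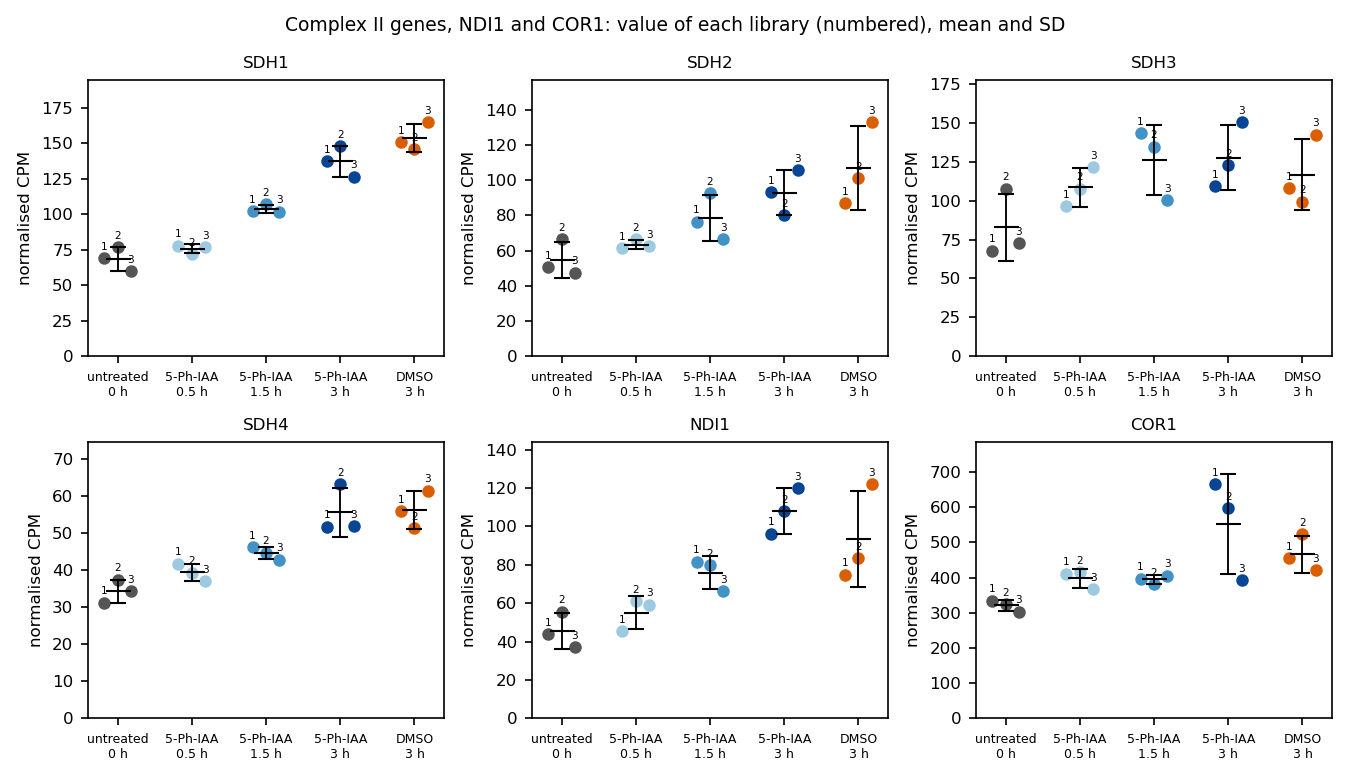
Normalised CPM of the 4 complex II genes, NDI1 and COR1 in each library (numbered points), with the mean and SD of each group of 3 (bars), by group along the horizontal axis. SDH1 lies at 59.7 to 76.8 CPM in untreated cells and at 126 to 148 CPM after 3 h of 5-Ph-IAA, against 146 to 165 CPM with DMSO.

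Complex III, which hands electrons from ubiquinol to cytochrome c, had 1 of 9 genes (11.1%) called between 5-Ph-IAA and DMSO. Of all tested genes, 7.94% were called in either direction and 5.07% higher. The median log2 fold change of the 9 genes was 0.24. QCR8, a small subunit that contacts cytochrome b, stood at 413, 424 and 372 CPM in untreated cells, 519, 457 and 363 CPM at 0.5 h and 405, 430 and 414 CPM at 1.5 h. It reached 627, 528 and 447 CPM at 3 h of 5-Ph-IAA, against 403, 378 and 349 CPM with DMSO, with no overlap between these groups. QCR8 was 1.42-fold higher with 5-Ph-IAA than with DMSO (log2 0.50, SE 0.14, adjusted p 0.0374). QCR7, another small subunit, was higher by 0.46 (SE 0.14, adjusted p 0.0560) and QCR10 by 0.46 (SE 0.15, adjusted p 0.0826), which missed the threshold. The other 6 ranged from -0.19 (QCR6) to 0.30 (CYT1). The QCR8 call was lost in 7 of 15 alternatives, among them those without library 1 or 2 of 5-Ph-IAA or any 1 library of DMSO, with an adjusted p of up to 0.192.

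Over untreated cells, 5 of the 9 complex III genes rose at 3 h of 5-Ph-IAA, against 19.6% of all tested genes, and 1 at 3 h of DMSO, against 17.6%, COR1 in both. COR1, a core protein of the complex, stood at 334, 325 and 303 CPM in untreated cells, 411, 416 and 367 CPM at 0.5 h and 397, 381 and 406 CPM at 1.5 h. It reached 665, 598 and 393 CPM at 3 h of 5-Ph-IAA, against 455, 523 and 421 CPM with DMSO. Library 3 of 5-Ph-IAA was the low one and lay below all of DMSO. COR1 rose by log2 0.78 (SE 0.16, adjusted p 0.000787) over untreated cells with 5-Ph-IAA and by 0.54 (SE 0.15, adjusted p 0.0121) with DMSO. The second call was lost without library 2 of DMSO (adjusted p 0.0515). CYT1, cytochrome c1, rose by 0.73 at 3 h of 5-Ph-IAA with library 1 highest: it stood at 637, 342 and 268 CPM, against 274, 246 and 230 CPM in untreated cells, and the call was lost without library 1 of 5-Ph-IAA or library 3 of untreated cells (adjusted p up to 0.196). QCR7, QCR8 and QCR10 rose by 0.65, 0.41 and 0.52. The QCR8 call was lost without library 1 or 3 of untreated cells or library 1 of 5-Ph-IAA (adjusted p up to 0.153), and that of QCR10 without library 3 of untreated cells (0.0515). QCR2, the other core protein, and RIP1, QCR6 and QCR9 were not called in any of the 7 comparisons.

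Of the 38 genes, CYC7 had the largest log2 fold change of 5-Ph-IAA over DMSO. CYC7, the hypoxic isoform, stood at 26.9, 28.1 and 14.4 CPM in untreated cells, 22.3, 21.9 and 16.4 CPM at 0.5 h and 20.4, 32.5 and 24.6 CPM at 1.5 h. It reached 88.4, 73.2 and 60.7 CPM at 3 h of 5-Ph-IAA, against 16.0, 18.2 and 15.8 CPM with DMSO. Every library of 3 h of 5-Ph-IAA lay above all other libraries, and the other 4 groups overlapped one another in part. CYC7 was 4.43-fold higher with 5-Ph-IAA than with DMSO at 3 h (log2 2.15, SE 0.23, adjusted p 2.49e-05), a call that held in all 15 alternatives at log2 2.0 to 2.28. It also rose over untreated cells (1.68, SE 0.23, adjusted p 3.57e-05) and over 1.5 h (1.52, SE 0.23, adjusted p 0.000572), while DMSO stood at -0.47 over untreated cells (adjusted p 0.126). Without library 3 of untreated cells, CYC7 was called lower with DMSO than in untreated cells. CYC1, the aerobic isoform, stood at 417, 523 and 375 CPM in untreated cells, 540, 486 and 565 CPM at 0.5 h and 501, 502 and 387 CPM at 1.5 h. It stood at 336, 417 and 528 CPM at 3 h of 5-Ph-IAA, against 479, 444 and 487 CPM with DMSO, and the groups overlapped. CYC1 was called in none of the 7 comparisons, and its difference between 5-Ph-IAA and DMSO was -0.14 (SE 0.16, adjusted p 0.694).

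As a share of both cytochrome c RNAs per coding base, CYC7 made up 20.2%, 14.5% and 9.98% at 3 h of 5-Ph-IAA, against 3.12%, 3.80% and 3.03% with DMSO. It made up 3.58% to 5.87% in untreated cells, 2.72% to 4.16% at 0.5 h and 3.78% to 5.88% at 1.5 h. CYC1 was the more abundant RNA in every library. The log2 ratio of CYC7 to CYC1 was -2.57 ± 0.60 with 5-Ph-IAA and -4.87 ± 0.18 with DMSO (SD, n = 3 each), a difference of 2.30 with an exact two-sided permutation p of 0.1. This is the smallest p that 3 against 3 libraries can give, and 0.233 after Benjamini-Hochberg adjustment over the 21 ratio comparisons made.

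**Figure D3:**
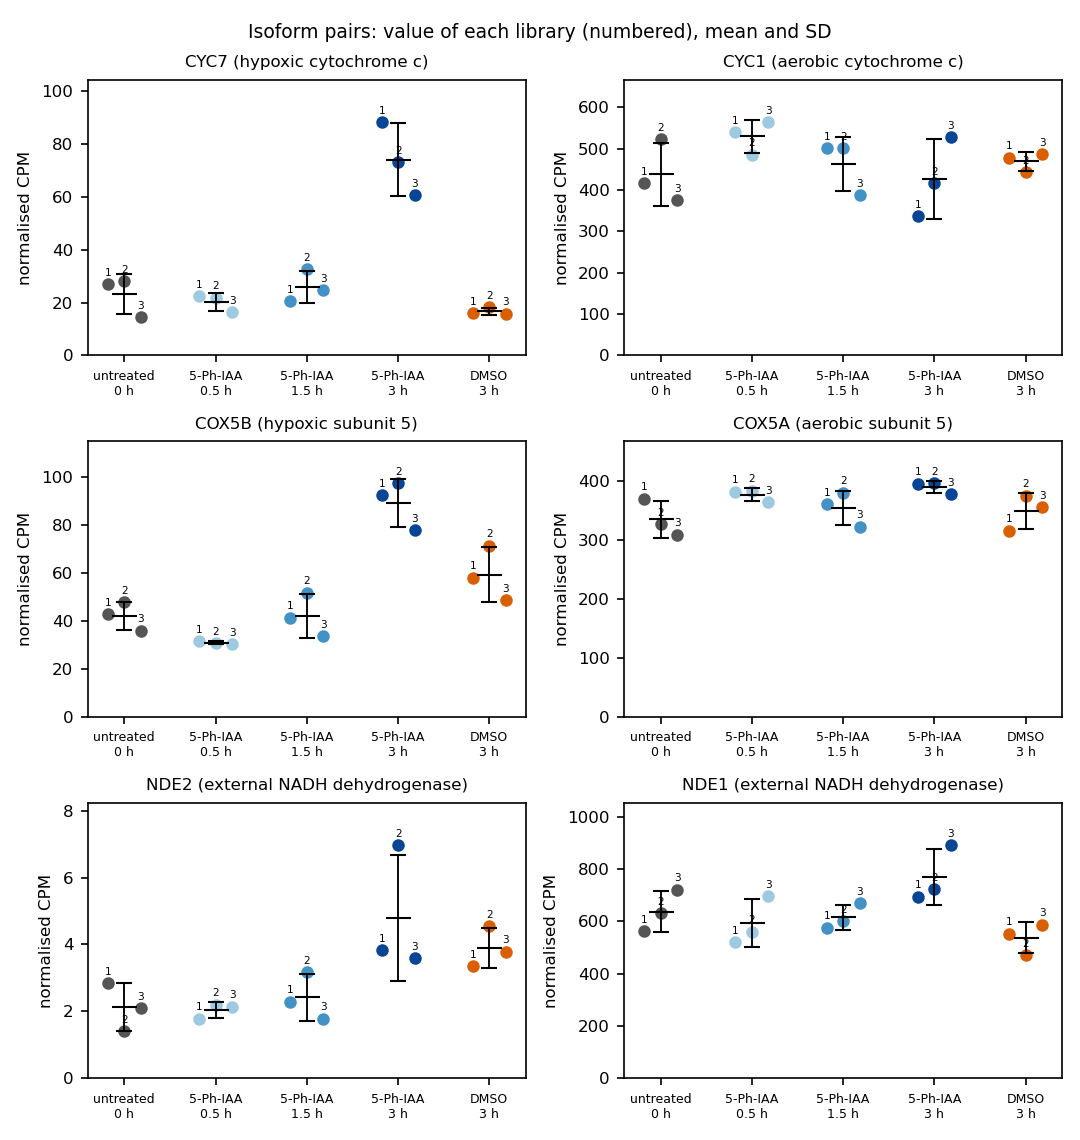
Normalised CPM of the paired genes in each library (numbered points), with the mean and SD of each group of 3 (bars), by group along the horizontal axis. CYC7 stands at 60.7 to 88.4 CPM after 3 h of 5-Ph-IAA and at 15.8 to 18.2 CPM with DMSO, while the CYC1 groups overlap.

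In complex IV, cytochrome c oxidase, the hypoxic form of subunit 5 was called higher with 5-Ph-IAA than with DMSO and the aerobic form was not. COX5B, the hypoxic subunit 5, stood at 42.8, 47.7 and 35.9 CPM in untreated cells, 31.5, 30.7 and 30.3 CPM at 0.5 h and 41.3, 51.7 and 33.5 CPM at 1.5 h. It reached 92.5, 97.2 and 77.9 CPM at 3 h of 5-Ph-IAA, against 58.0, 71.3 and 48.5 CPM with DMSO. The libraries of 3 h of 5-Ph-IAA lay above all others, those of DMSO above all of the untreated ones, and those of 0.5 h below all of the untreated ones. COX5B was 1.50-fold higher with 5-Ph-IAA than with DMSO (log2 0.58, SE 0.16, adjusted p 0.0375). It rose over untreated cells with 5-Ph-IAA (1.07, SE 0.17, adjusted p 9.39e-05) and with DMSO (0.49, SE 0.16, adjusted p 0.0270), and the difference at 0.5 h was -0.45 (adjusted p 0.146). The call against DMSO was lost in 7 of 15 alternatives, among them those without library 1 or 2 of 5-Ph-IAA or library 1 or 3 of DMSO, with an adjusted p of up to 0.169. That of DMSO over untreated cells was lost without library 1 or 3 of untreated cells or library 1 or 2 of DMSO (adjusted p up to 0.142).

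COX5A, the aerobic subunit 5, stood at 370, 326 and 309 CPM in untreated cells, 382, 384 and 364 CPM at 0.5 h and 361, 380 and 322 CPM at 1.5 h. It stood at 395, 396 and 377 CPM at 3 h of 5-Ph-IAA, against 316, 375 and 356 CPM with DMSO. It was not called in any comparison, and its difference between 5-Ph-IAA and DMSO was 0.16 (SE 0.11, adjusted p 0.436). COX5B made up 19.2%, 19.9% and 17.3% of both subunit 5 RNAs per coding base at 3 h of 5-Ph-IAA, against 15.7%, 16.2% and 12.1% with DMSO. It made up 10.5%, 12.9% and 10.5% in untreated cells, 7.71%, 7.51% and 7.78% at 0.5 h and 10.4%, 12.1% and 9.54% at 1.5 h. The log2 ratio of COX5B to COX5A was -2.11 ± 0.13 with 5-Ph-IAA and -2.55 ± 0.26 with DMSO (SD, n = 3 each), and the difference of 0.44 had an exact permutation p of 0.1. For NDE2 to NDE1 the log2 ratio was -7.35 ± 0.64 with 5-Ph-IAA and -7.08 ± 0.37 with DMSO (SD, n = 3 each), a difference of -0.27 with an exact permutation p of 0.4.

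Of the other 7 genes of complex IV, COX7 changed in 1 comparison and the rest in none. COX7, a small subunit and the most abundant of these RNAs per kilobase, stood at 541, 615 and 366 CPM in untreated cells, 743, 567 and 407 CPM at 0.5 h and 431, 428 and 460 CPM at 1.5 h. It stood at 589, 477 and 395 CPM at 3 h of 5-Ph-IAA, against 294, 295 and 319 CPM with DMSO. The DMSO libraries lay below every other library. COX7 was lower with DMSO than in untreated cells (log2 -0.75, SE 0.21, adjusted p 0.0104), and higher with 5-Ph-IAA than with DMSO by 0.69 (SE 0.21, adjusted p 0.0547), which missed the threshold. The first call was lost without library 2 of untreated cells (adjusted p 0.0656). COX4, COX6, COX8, COX9, COX12 and COX13 ranged from -0.07 (COX6) to 0.48 (COX12) between 5-Ph-IAA and DMSO. COX12 split by library number, at 448, 385 and 224 CPM with 5-Ph-IAA, against 279, 330 and 147 CPM with DMSO, and was called when the library number was fitted as a block on these 6 libraries (0.51, adjusted p 0.0331).

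Of the 11 ATP synthase genes 0 were called between 5-Ph-IAA and DMSO by edgeR, with 0 at an unadjusted p under 0.05 and 0 called by DESeq2. Of all 6069 tested genes edgeR called 7.94%, and 1332 reached an unadjusted p under 0.05. The log2 fold changes of the 11 genes ran from -0.12 (ATP2) to 0.25 (ATP17). ATP20, subunit g of the membrane part, had the smallest p of these: it stood at 166, 153 and 125 CPM with 5-Ph-IAA, against 142, 130 and 129 CPM with DMSO (0.14, SE 0.13, adjusted p 0.559). In the earlier groups ATP20 stood at 150, 153 and 138 CPM in untreated cells, 174, 154 and 133 CPM at 0.5 h and 138, 161 and 152 CPM at 1.5 h. ATP2, the catalytic beta subunit, stood at 864, 801 and 798 CPM in untreated cells, 1101, 969 and 1006 CPM at 0.5 h and 849, 902 and 964 CPM at 1.5 h. It stood at 1354, 1170 and 823 CPM at 3 h of 5-Ph-IAA, against 1307, 1323 and 997 CPM with DMSO, so library 3 was the low one in both. ATP2 rose over untreated cells by log2 0.44 with 5-Ph-IAA (SE 0.16, adjusted p 0.0358) and by 0.56 with DMSO (SE 0.16, adjusted p 0.0114). ATP17, subunit f, rose by 0.71 with 5-Ph-IAA (adjusted p 0.0367), with library values of 1004, 672 and 416 CPM, against 478, 410 and 393 CPM in untreated cells. Without library 1 of 5-Ph-IAA or any 1 untreated library both of these calls with 5-Ph-IAA were lost, and that of ATP2 also without library 2 of 5-Ph-IAA (adjusted p up to 0.189 for ATP2 and 0.271 for ATP17). The other 8 genes, ATP1 (alpha), ATP3 (gamma), ATP4, ATP5, ATP7, ATP14, ATP15 and ATP16 (delta), were called in none of the 7 comparisons.

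More of the 38 genes were called over untreated cells at the later times of 5-Ph-IAA, and so were more of all tested genes (6.15%, 17.6% and 39.3%). At 0.5 h edgeR called 0 of 38, against 6.15% of all tested genes (3.36% higher and 2.78% lower), and DESeq2 called 0. In edgeR's test an unadjusted p under 0.05 was reached by 6 of the 38 and by 1180 of all 6069 tested genes. The log2 fold change was above 0 for 32 of the 38 and for 2793 of the 6069. The median was 0.20 over the 38, against -0.03 over all tested genes. All 3 libraries of 0.5 h lay above the untreated ones for 9 of the 38 (12.4% of all tested genes) and below for 1, COX5B (16.6% of all). Fits on the 6 libraries of 0 h and 0.5 h alone called 3, and 9 with a block for the library number. At 1.5 h 5 rose, against 7.86% of all tested genes called higher, 9.74% lower and 17.6% in either direction: the 4 of complex II and NDI1. The libraries lay above all untreated ones for 8 of the 38 (19.0% of all tested genes) and below for 0 (22.2%). The count at 1.5 h was 1 (SDH1) without library 3 of untreated cells or library 2 of 1.5 h, and 2 without library 1 of either group. At 3 h of 5-Ph-IAA 15 rose and 0 fell (39.5% of the 38), against 19.6% higher, 19.7% lower and 39.3% in either direction over all tested genes. The libraries lay above all untreated ones for 15 of the 38 (22.5% of all tested genes) and below for 0 (23.8%). At 3 h of DMSO 8 rose and 1 fell, against 17.6% and 18.5% of all tested genes and 36.1% in either direction. The libraries lay above all untreated ones for 14 of the 38 (22.3% of all tested genes) and below for 2 (23.5%). Genes called in both were SDH1, SDH2, SDH4, COR1, COX5B, ATP2, NDI1 and NDE2, and the comparisons share the untreated libraries. Without library 3 of untreated cells the count with 5-Ph-IAA was 9. Scaling by total counts raised these counts to 25 and 21, and put the median log2 fold change of all tested genes at 0.15 and 0.21, against 0.0099 and 0.0073 with TMM scaling.

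Between successive times of 5-Ph-IAA, 1 gene of the 38 was higher at 1.5 h than at 0.5 h and 4 were higher at 3 h than at 1.5 h. The first step called SDH1 (log2 0.46, SE 0.11, adjusted p 0.0486), against 0.923% of tested genes called higher, 0.214% lower and 1.14% in either direction, and the call was lost without any 1 of the 6 libraries (adjusted p up to 0.216). The second called CYC7 (1.52), COX5B (1.07), COR1 (0.48) and SDH1 (0.40), against 8.90% called higher, 6.94% lower and 15.8% in either direction. Without overlap between groups, 4 of the 38 were higher and 3 lower in the first step (11.9% and 13.2% of all tested genes), and 8 were higher and 0 lower in the second (16.0% and 16.2%). The second count was 11 without library 3 of 3 h, and 2 without library 2 of 3 h or library 1 of 1.5 h. COR1 lost this call without library 1 or 2 of 3 h or any 1 library of 1.5 h, and SDH1 without library 2 of 3 h or library 1 of 1.5 h (adjusted p up to 0.241 and 0.143). A test for any change over untreated cells and the 3 times called 10 of 38, against 37.1% of all tested genes: SDH1, SDH2, SDH4, COR1, QCR7, QCR10, COX5B, CYC7, NDI1 and NDE2. At 26.3% the share of the 38 was below that background.

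Genes for assembling complexes III, IV and ATP synthase were described beside the subunit genes. Of 50 such genes, 1 was higher with 5-Ph-IAA than with DMSO (COA2) and 8 were lower (CBP3, CBP6, CBS2, COX10, PET117, OXA1, ATP11, AEP1), against 5.07% and 2.87% of all tested genes, with a median log2 fold change of -0.24. PET117, which helps to assemble complex IV, was lowest at -0.82 (SE 0.16, adjusted p 0.00488), with 32.4 CPM with 5-Ph-IAA, against 57.9 CPM with DMSO. CBS2, a translational activator of the mitochondrial gene COB, had a log2 fold change of -0.67 (adjusted p 0.00279), and ATP11, a chaperone for the catalytic part of ATP synthase, one of -0.59 (adjusted p 0.00297). COA2, an assembly factor of complex IV, was higher by 0.75 (adjusted p 0.00128). Over untreated cells, 17 of the 50 rose and 2 fell with 5-Ph-IAA, against 19.6% and 19.7% of all tested genes, while 30 rose and 1 fell with DMSO, against 17.6% and 18.5%. PET117, CBS2 and COA2 were called in all 15 alternatives and ATP11 in 14. The other 5 lost the call without library 2 of 5-Ph-IAA and without library 1 of DMSO, with adjusted p of up to 0.264. The count of 9 against DMSO was 4 without library 2 of 5-Ph-IAA or library 1 of DMSO, and 3 in a fit of these 6 libraries alone.

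**Figure D4:**
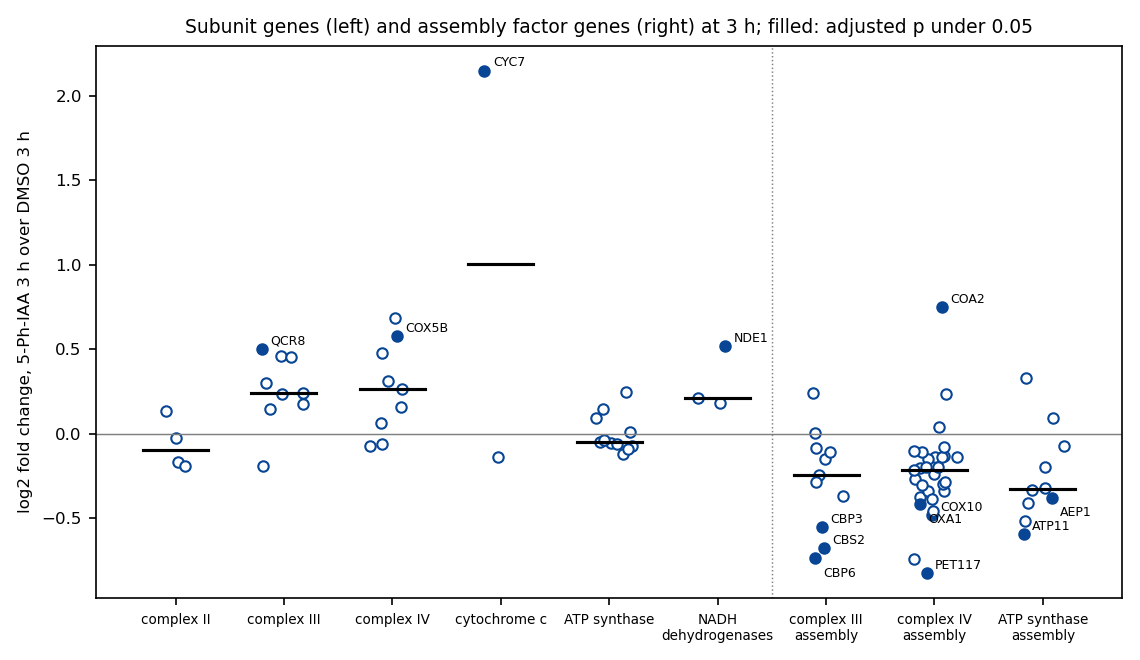
Log2 fold change of 3 h of 5-Ph-IAA over 3 h of DMSO (vertical axis) for each subunit gene by complex (left of the dotted line) and each assembly factor gene (right), with filled points at an adjusted p under 0.05 and lines at the medians. CYC7 stands apart at 2.15, and the called assembly genes lie below 0 except COA2 at 0.75.

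HAP4, the limiting activator subunit, was higher at 3 h of 5-Ph-IAA. It stood at 367, 259 and 276 CPM with 5-Ph-IAA, against 143, 149 and 175 CPM with DMSO, with no overlap (log2 0.95, SE 0.14, adjusted p 0.000558, held in all 15 alternatives). Over untreated cells (115, 110 and 111 CPM) HAP4 rose by 1.42 with 5-Ph-IAA and by 0.47 with DMSO (lost without library 3 of DMSO, adjusted p 0.0613), and stood at 0.30 at 1.5 h (adjusted p 0.166). ROX1 stood at 132, 129 and 178 CPM with 5-Ph-IAA, against 57.2, 74.4 and 109 CPM with DMSO (0.87, SE 0.20, adjusted p 0.0108), a call lost without library 1 of DMSO (adjusted p up to 0.117). Against untreated cells, ROX1 was lower with DMSO (log2 -0.73, adjusted p 0.00768) and stood at 0.14 with 5-Ph-IAA. HAP1 stood at -0.24 between 5-Ph-IAA and DMSO (SE 0.17, adjusted p 0.457). Of 13 genes listed for low oxygen, 1 was higher with 5-Ph-IAA than with DMSO and 0 lower, against 5.07% and 2.87% of tested genes. The 1 was ROX1 itself, which encodes the repressor of hypoxic genes, so none of the others on the list was called. The median log2 fold change of the 13 was -0.13, and 5 of the 13 were above 0. Of 16 markers of relief from glucose repression outside respiration, 0 were called by edgeR, with 3 at an unadjusted p under 0.05. That p was reached by 1332 of the 6069 tested genes. Of 5 mitochondrial carriers of ADP, ATP and phosphate, 1 was called higher and 0 lower, against 5.07% and 2.87% of tested genes. It was PIC2, a carrier of phosphate and copper into mitochondria, at 411 CPM with 5-Ph-IAA, against 187 CPM with DMSO (1.14, SE 0.12, adjusted p 2.14e-05). The median log2 fold change of the 5 was 0.04. Of 3 further proteins of complex IV and its supercomplexes, with a median of 0.12, 1 was called higher and 0 lower. It was COX26, a small protein of complex IV supercomplexes, at 16.4, 21.3 and 10.3 CPM with 5-Ph-IAA, against 5.10, 5.44 and 5.83 CPM with DMSO (1.50, SE 0.25, adjusted p 0.00149).

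The 7 subunits encoded in mitochondrial DNA spread widely from library to library. Their summed level was 333, 1904 and 20.5 CPM at 3 h of 5-Ph-IAA, against 83.6, 141 and 32.9 CPM with DMSO, and all mitochondrial genes took 0.786%, 4.62% and 0.0165% of counts with 5-Ph-IAA, against 0.162%, 0.102% and 0.0445% with DMSO. Yeast mitochondrial messages carry no poly(A) tails, and the libraries were made from polyadenylated RNA. Of the 7, COB, COX2 and COX3 were called higher by edgeR, each call was lost without library 2 of 5-Ph-IAA or any 1 library of DMSO (adjusted p up to 0.517, 0.213 and 0.323), and library 3 of 5-Ph-IAA lay below every DMSO library for all 3. The part of mitochondrial RNA content in the results on nuclear genes was not tested.

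Library 3 was the low one of its group for many of the 38 genes. It was the lowest for 22 of 38 at 3 h of 5-Ph-IAA, 17 with DMSO, 30 in untreated cells, 21 at 0.5 h and 23 at 1.5 h, against 34.9% to 38.7% of all tested genes. The median deviation of the 38 genes from their group mean in library 3 was -0.12 on the log2 scale at 3 h of 5-Ph-IAA, -0.04 with DMSO, -0.14 in untreated cells, -0.05 at 0.5 h and -0.09 at 1.5 h. Over all tested genes it was between -0.01 and 0.01 in these libraries. With library 3 of both groups of 3 h left out, 4 genes were called between 5-Ph-IAA and DMSO: CYC7, QCR7, QCR8 and COX7.

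**Figure D5:**
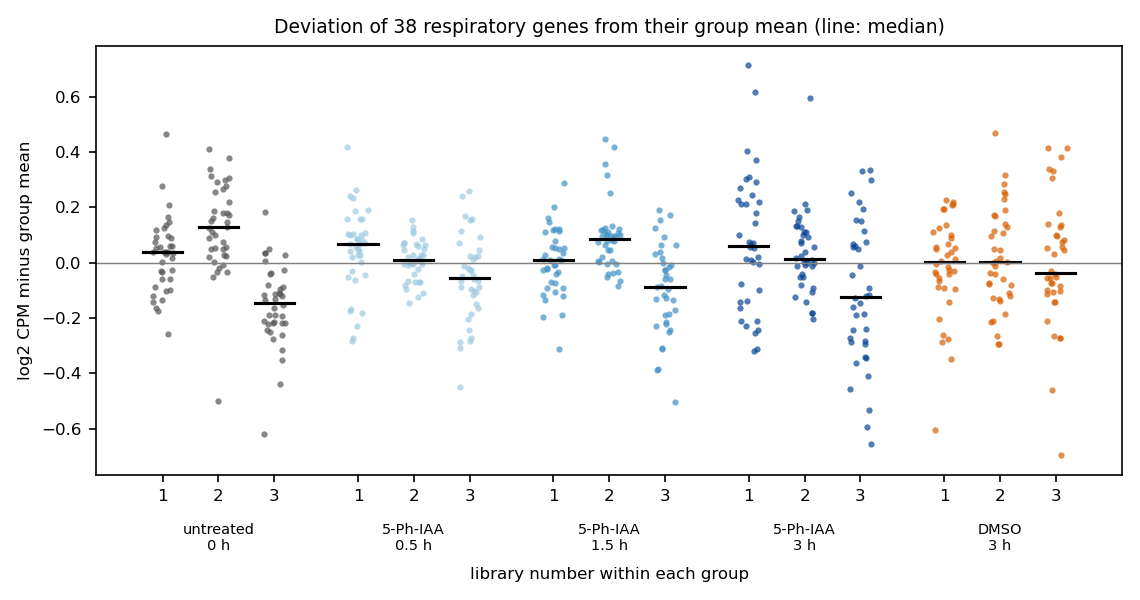
Deviation of each of the 38 genes (points) from its group mean in log2 CPM, for libraries 1 to 3 of each group along the horizontal axis, with the median as a line. The median of library 3 lies below 0 in all 5 groups, at -0.14 in untreated cells and -0.12 at 3 h of 5-Ph-IAA.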

How the data were processed

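RNA of 15 yeast libraries was measured. The authors deposited 1 table of whole-number counts, with a row per gene and a column per library. FastQC 0.11.5, STAR 2.7.0, DESeq2 1.34.0 and build R64 are named, without their roles, per the submitters' processing notes. How reads were counted and whether by strand is not given in the sources used here. Totals ran from 2530145 to 21282576 counts, so the library with the lowest total has the least precise low counts. All columns were mapped to samples.

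Counts were fitted with edgeR 4.0.16 (R 4.3.3, limma 3.58.1): TMM scaling, the filterByExpr filter (6069 genes kept of 6798 with a count), 1 mean per group over all 15 libraries, the two-sided quasi-likelihood test and Benjamini-Hochberg adjustment within each of 7 comparisons, at a biological coefficient of variation of 17.0%. The pipeline was tested on simulated data. Log2 ratios within a library used counts per coding length and an exact permutation test. Log2 CPM used a prior count of 1. Sequences came from the R64 reference, and copies were searched with BLAST+ 2.17.0. Python 3.11.15 with matplotlib 3.10.9 made the figures.

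Library numbers are shared between groups in the labels. Same-numbered libraries correlated above 0.1 in each pair for 3 h of 5-Ph-IAA and DMSO only, so a fit with the number as a block is given beside that comparison. Libraries 1 and 2 of these groups also correlated above 0.1 across numbers. Alternatives were RLE factors, total counts, a mean of at least 10 CPM or no filter, a replicate block, only the compared groups, each library left out and DESeq2 1.42.0. The members and gene lists were chosen with earlier results of these data known. Values in every library are given for isoform pairs and, in each complex, the genes with the smallest p between 5-Ph-IAA and DMSO and for any change. CYT1, QCR7, QCR10, COX7, COX12 and ATP17 were described after their values were seen, as were the members of other lists beyond the first 3.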

Additional observations from a re-analysis of the deposited data

Results flagged for a closer look

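Effects of successive times of 5-Ph-IAA differed for 4 genes in edgeR's test of the difference between times. CYC7 was higher at 3 h than at 1.5 h by log2 1.52 (adjusted p 0.000572) and COX5B by 1.07 (adjusted p 0.000642). COR1 was higher by 0.48 (adjusted p 0.0441). SDH1 was higher at 3 h than at 1.5 h by 0.40 (adjusted p 0.0169) and at 1.5 h than at 0.5 h by 0.46 (adjusted p 0.0486). No DMSO libraries exist at 0.5 h and 1.5 h in the samples used here, so time and 5-Ph-IAA cannot be told apart in these steps.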

How the results depend on the processing

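Counts of called genes moved with the processing. For 3 h of 5-Ph-IAA over DMSO the count of 4 was 1 with total counts alone or only the compared groups, 7 with a replicate block over all 15 libraries, 8 with the block on the compared groups, 7 with DESeq2, and 1 to 7 with 1 library left out. The count of 0 at 0.5 h was 1 with the block, 3 with only the compared groups and 9 with both. The count of 5 at 1.5 h was 9 with only the compared groups, with or without the block, and 1 to 6 with 1 library left out. The count of 15 at 3 h of 5-Ph-IAA over untreated cells was 25 with total counts and 9 to 18 with 1 library left out. That of 9 for DMSO was 21 with total counts and 14 without number 3 of both 3 h groups, an alternative added after the data were seen. The count of 1 from 0.5 h to 1.5 h was 0 with the block and 0 with any 1 library left out. The count of 4 from 1.5 h to 3 h was 8 with total counts, 2 with the block on the compared groups, 7 with DESeq2, 11 without number 3 of both 3 h groups, and 2 to 11 with 1 library left out. The 10 genes with any change became 16 without number 3 and 17 with DESeq2. The 9 assembly genes became 3 with only the compared groups and 4 to 9 with 1 library left out. The difference in the log2 ratio of NDE2 to NDE1, 5-Ph-IAA minus DMSO, was -0.27 and ran from -0.61 (without library 2 of 5-Ph-IAA) to 0.014 (without library 3 of 5-Ph-IAA), where its sign changed. The other isoform ratios between 5-Ph-IAA and DMSO at 3 h did not change sign, and no log2 fold change of a called member did. The cause of these moves was not tested, and some of these fits also held fewer libraries. Same-numbered libraries do not correlate above 0.1 in every pair outside the 3 h groups, so the block there rests on a number only. The smallest exact permutation p of 0.1 says nothing about the stability of the ratios. NDE2, at 12 to 113 counts a library, and the library of 2530145 counts limit the precision.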

Other observations

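Some of the genes beside the chain rose over untreated cells in both groups of 3 h. Of 11 genes of ubiquinone synthesis, 6 rose with 5-Ph-IAA and 6 with DMSO, against 19.6% and 17.6% of all tested genes. Between 5-Ph-IAA and DMSO 1 was higher, against 5.07% of all tested genes: COQ11 (log2 0.46, adjusted p 0.0376), a call lost in 9 of 15 alternatives, among them those without library 1 or 3 of 5-Ph-IAA or any 1 library of DMSO (adjusted p up to 0.190). The 4 other genes of electron transfer were GUT2, DLD1, CYB2 and CCP1. Of these, 3 rose with 5-Ph-IAA and 1 with DMSO, against 19.6% and 17.6% of all tested genes. CYB2, which passes electrons from lactate to cytochrome c, stood at 168, 117 and 107 CPM with 5-Ph-IAA, against 90.7, 82.6 and 70.2 CPM with DMSO (0.69, SE 0.16, adjusted p 0.0112), and this call was lost without library 1 of 5-Ph-IAA (adjusted p up to 0.132). Of 6 further ATP synthase subunits and inhibitor proteins, 3 rose over untreated cells with 5-Ph-IAA and 0 fell, while 3 rose and 1 fell with DMSO. Of all tested genes, 19.6% rose and 19.7% fell with 5-Ph-IAA, and 17.6% rose and 18.5% fell with DMSO. INH1, STF1 and STF2, which act on the enzyme when it runs in reverse, rose with 5-Ph-IAA (0.75, 1.27 and 1.93) and with DMSO (0.83, 0.75 and 1.36), in all 15 alternatives. ATP19, a small subunit, stood at -0.24 with 5-Ph-IAA (adjusted p 0.314) and fell by 0.47 with DMSO (adjusted p 0.0421), a call lost in 7 of 15 alternatives, among them those without library 1 or 2 of untreated cells or library 1 or 3 of DMSO (adjusted p up to 0.246). TIM11 stood at -0.25 with 5-Ph-IAA and -0.30 with DMSO, and ATP18 at 0.031 and 0.074, none of them called.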
